A study of Mus musculus with 12 samples.

Results

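The RNA level of each gene was compared between 3T3-L1 cells labelled as transfected with an siRNA against Mcaf1 (si-Mcaf1) and 3T3-L1 cells that received the negative control siRNA (si-Ctr), both before differentiation. The members are 2 of the 12 arrays in the series, 1 labelled si-Mcaf1 and 1 si-Ctr, both from the experiment that the sample titles mark B. The arrays of experiment B labelled si-Setdb1 and si-Mbd1, 1 each, served to show what was seen on the array labelled si-Mcaf1 alone. 3T3-L1 is a mouse preadipocyte line, a fibroblast-like cell that turns into a fat cell in medium with dexamethasone, a synthetic glucocorticoid. All 4 cultures had 10% serum and were transfected on day -5 and on day 0, the day on which other cultures of the series went into medium with 0.25 μM dexamethasone. Stealth siRNAs were used, and the number of siRNA sequences per gene is not given in the labels. A gene was kept where its brightest probe set had a signal above 50 on at least 1 of the 4 arrays, which left 9335 of 20670 genes. With 1 array a side there is no replicate error, no test was made, and every difference below describes these arrays and not the conditions.

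Mcaf1, now named Atf7ip, encodes a partner of SETDB1, the enzyme that trimethylates lysine 9 of histone H3, and keeps that enzyme stable in the nucleus. It also binds MBD1, a protein that recognises methylated CpG sites. Silencing by this mark holds down retroelements, germline genes and some tissue-specific genes, and SETDB1 is known as a brake on fat cell genes in preadipocytes.

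The title of the array labelled si-Mcaf1 gives 0 hr and its description gives 36 hr of dexamethasone, and the same holds for the si-Mbd1 array. None of the 13 glucocorticoid-induced genes kept was at least 2-fold higher on the array labelled si-Mcaf1 than on si-Ctr, with a median log2 difference of 0.15. They did lean upward, with 11 above 0 (84.6%, where 48.5% of all genes kept were) and 2 below. Mt2 was the farthest above, at 0.73. On the si-Ctr arrays of experiment A, 9 of the 13 were at least 2-fold higher after 36 hr of dexamethasone than at 0 hr, with a median of 1.43. Errfi1, a feedback inhibitor of EGF receptor signalling, had a signal of 161 on the array labelled si-Mcaf1 and 158 on si-Ctr, and read 1993 after dexamethasone. These genes were thus near their level without dexamethasone, and the 0 hr title is used here. The 4 arrays had median signals of 14.9 to 18.1, and the signal ratio of the 3′ to the 5′ Gapdh control probe sets was 0.691 to 0.747. All 12 fibroblast and preadipocyte markers were above 50 on at least 1 of the 4 arrays. Of the 10 macrophage and leukocyte markers 2 were above 50, with summed signals of 106 to 212. No marker of the 8 endothelial, 8 epithelial or 8 neural ones passed 50, and 1 of the 8 skeletal muscle markers, Des, did. None of these markers was listed at 0.

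The array labelled si-Mcaf1 did not have less Atf7ip RNA than si-Ctr. The brightest Atf7ip probe set read 154.5 on the array labelled si-Mcaf1, 399.5 on the array labelled si-Setdb1, 150.9 on si-Mbd1 and 159.6 on si-Ctr. The next brightest read 94.8, 246 and 130.0 on those arrays and 109 on si-Ctr, so the log2 differences of the array labelled si-Mcaf1 from si-Ctr were -0.04 and -0.18. Over the 5 si-Ctr arrays of the whole series the brightest probe set ranged between 106 and 187, and the array labelled si-Mcaf1 lies within that range. These probe sets thus did not show the loss of the target that the label names, and the reason was not tested. The sample is therefore named by its label alone.

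Setdb1, in contrast, was higher on the array labelled si-Mcaf1 than on each of the other 3 arrays with its brightest probe set. That probe set read 271 on the array labelled si-Mcaf1, 143.0 on the array labelled si-Setdb1, 144.5 on si-Mbd1 and 144.8 on si-Ctr, and the 5 si-Ctr arrays of the series spanned 120.5 to 179.8. The other 2 Setdb1 probe sets were dimmer. They read 23.8 and 46.4 on the array labelled si-Mcaf1, with 11.7 and 24.4 on si-Ctr. As ratios of the deposited signals, the 3 probe sets were 1.87, 2.03 and 1.90 times as bright on the array labelled si-Mcaf1. The array labelled si-Setdb1 also did not show the loss of its target in the brightest Setdb1 probe set, with a signal close to si-Ctr. The probe set at 24.4 on si-Ctr read 9.9 there, and the reason for this was not tested either. Mbd1 read 310.2 on the array labelled si-Mcaf1, 309 on the array labelled si-Setdb1, 144.0 on si-Mbd1 and 306 on si-Ctr, so the target of the Mbd1 siRNA was lower on its own array. The plot of the targeted genes shows these signals.

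**Figure D1:**
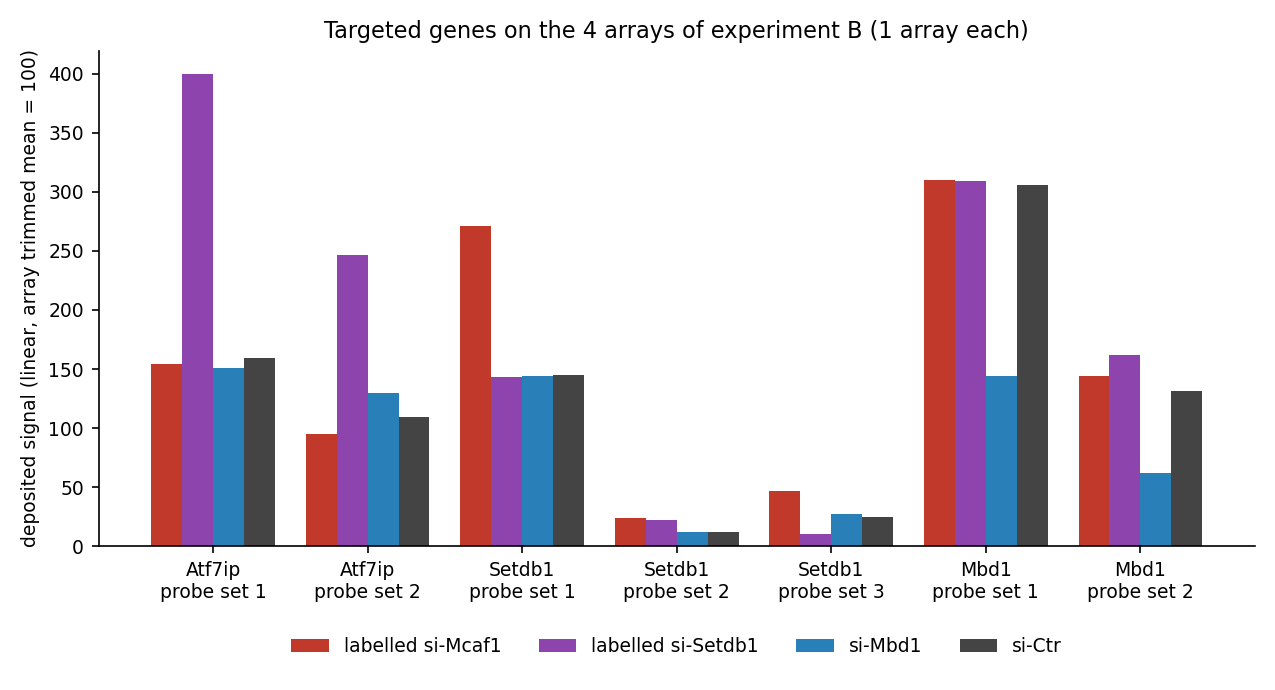
Bars give the deposited linear signal of each probe set of Atf7ip (the 2 brightest), Setdb1 (all 3) and Mbd1 (the 2 brightest) on the 4 arrays of experiment B, with 1 array per bar and no error. Atf7ip on the array labelled si-Mcaf1 (154.5) is close to si-Ctr (159.6), Setdb1 is higher there (271 against 144.8), and Mbd1 is lower on the si-Mbd1 array alone.

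Of 28 genes kept from a list of silencing partners, 0 were 2-fold higher (0.493% of all genes kept were) and 0 were 2-fold lower (0.311%) on the array labelled si-Mcaf1 than on si-Ctr, and at these shares few genes past 2-fold would be found in any list of this size. Their median log2 difference was 0.01, against -0.01 over all genes kept. Tasor, a subunit of the HUSH complex that works with SETDB1, read 84.7 on the array labelled si-Mcaf1, 57.8 on the array labelled si-Setdb1, 28.9 on si-Mbd1 and 39.6 on si-Ctr, but 70.0 on the si-Ctr array of experiment A. Trim28, the corepressor that brings SETDB1 to zinc finger proteins, read 820.3 on the array labelled si-Mcaf1 and 802 on si-Ctr. Ehmt2, the enzyme that places mono- and dimethylation on the same lysine, read 673 on the array labelled si-Mcaf1 and 913 on si-Ctr. Setdb1 and Tasor were thus the members farthest above si-Ctr, by 0.84 and 0.86 on the log2 scale.

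In RNA from whole cultures, fewer cells expressing a gene and less RNA of it per cell cannot be told apart. Differences were taken on the scale of log2(signal + 16), which understates those of dim genes. By this measure 46 genes (0.493% of 9335) were at least 2-fold higher on the array labelled si-Mcaf1 than on si-Ctr, and 29 (0.311%) were at least 2-fold lower. The median over all genes kept was -0.01 with an SD of 0.30 across genes. For comparison, the si-Ctr array of experiment A differed by at least 2-fold from the si-Ctr array of experiment B in 73 genes upward (0.782%) and 147 downward (1.57%). That pair of control arrays is the nearest thing to replicate error here, and it also holds the difference between the experiments. Fewer genes passed 2-fold here than between the 2 control arrays, and single genes are read below against both of them. Of the 46 higher genes, 44 were above both si-Ctr arrays, 29 were at least 2-fold above both, and 24 were above all of the other 11 arrays of the series. Of the 29 lower genes, all were below both si-Ctr arrays, 17 by at least 2-fold, and 6 were below all of the other 11 arrays. The same si-Mcaf1 signal picked these genes and enters each of these counts, so the counts are in part expected from the choice. The matching shares over all genes kept were not counted. The counts depend on the pseudocount, with 89 higher and 51 lower genes at a pseudocount of 1 and 20 higher and 17 lower at 50. Against the si-Ctr array of experiment A they were 197 higher and 92 lower, more in all than between the 2 control arrays.

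**Figure D2:**
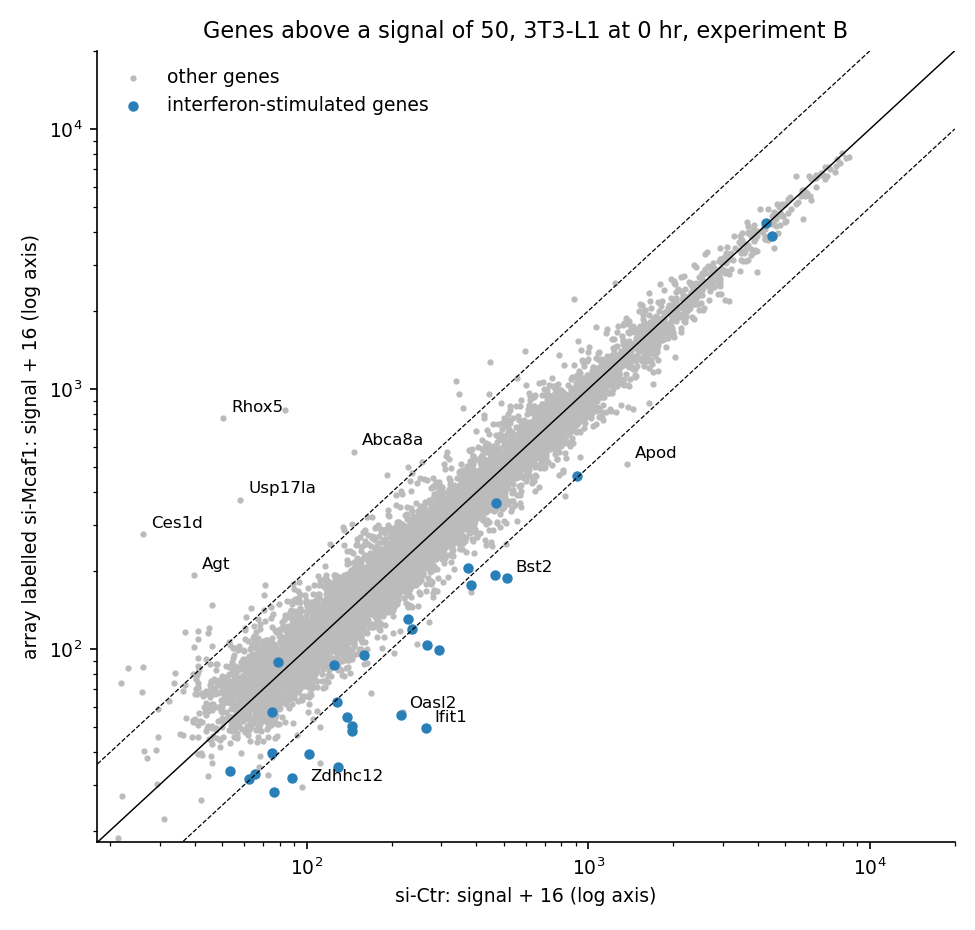
Each point is 1 of 9335 genes, with its signal plus 16 for the si-Mcaf1 label on the vertical log axis and for si-Ctr on the horizontal one, where the solid line marks equal signals and the dashed lines a 2-fold difference. Most genes lie between the dashed lines, Rhox5, Ces1d, Usp17la and Agt lie far above them, and the interferon-stimulated genes (blue) lie mostly below the solid line.

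Rhox5 had the largest difference. It encodes a homeobox protein of the X-linked reproductive homeobox cluster, and is known from testis, ovary and placenta and as a gene that DNA methylation keeps off in somatic cells. Its signal was 756 on the array labelled si-Mcaf1, 113 on the array labelled si-Setdb1, 39.8 on si-Mbd1 and 34.5 on si-Ctr. The log2 difference from si-Ctr was 3.93, or 15.3-fold, and the other 11 arrays of the series spanned 5.6 to 113. Rhox5 was thus highest on the array labelled si-Mcaf1, and the highest of the remaining arrays was the one labelled si-Setdb1 of the same experiment. It was also the only 1 of 29 germline and early-embryo genes listed that passed the signal of 50 on any of the 4 arrays. Its promoter is shown because methylated CpG sites are what MBD1 binds. The window holds the 250 bases before the RefSeq start of the gene and the 50 after it, at chrX:37754358-37754657 on the plus strand of GRCm38.p6, and the 5 CG dinucleotides are in capitals.
Rhox5: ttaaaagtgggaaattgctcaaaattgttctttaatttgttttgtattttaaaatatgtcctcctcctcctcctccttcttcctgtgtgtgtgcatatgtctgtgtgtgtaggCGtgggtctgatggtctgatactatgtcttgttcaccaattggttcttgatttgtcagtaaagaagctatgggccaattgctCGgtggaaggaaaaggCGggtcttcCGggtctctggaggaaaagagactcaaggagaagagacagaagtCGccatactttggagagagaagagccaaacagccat
No methylation was measured, so these positions are given for reference alone.

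Ces1d and Usp17la followed among genes with a name other than a clone name. Ces1d encodes a carboxylesterase that hydrolyses triacylglycerol in liver and fat. It read 260.3 on the array labelled si-Mcaf1, 43.6 on the array labelled si-Setdb1, 10.4 on si-Mbd1 and 10.2 on si-Ctr. A different Ces1d probe set gave 214, 21.2, 6.5 and 5.0 in the same order. Both probe sets were thus far higher on the array labelled si-Mcaf1 than on si-Ctr, with log2 differences of 3.40 and 3.45. Usp17la belongs to a family of deubiquitinating enzymes with many near-identical copies in the mouse genome, so its probe set may read several of them. It read 359 on the array labelled si-Mcaf1, 76.0 on the array labelled si-Setdb1, 45.0 on si-Mbd1 and 42.1 on si-Ctr, a log2 difference of 2.69. The si-Ctr array of experiment A read 72.8, close to the array labelled si-Setdb1, and the array labelled si-Setdb1 of experiment A read 178.

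Agt and Abca8a were next. Agt, which encodes the angiotensin precursor that fat cells also secrete, read 176 on the array labelled si-Mcaf1, 107 on the array labelled si-Setdb1, 33.9 on si-Mbd1 and 23.6 on si-Ctr. The difference from si-Ctr was 2.28 on the log2 scale, but the si-Ctr array of experiment A read 76.0, so the 2 control arrays were themselves far apart. Abca8a, a lipid transporter of the ATP-binding cassette family, read 557 on the array labelled si-Mcaf1, 148 on the array labelled si-Setdb1, 206 on si-Mbd1 and 131 on si-Ctr. Its log2 difference of 1.96 stood against 83.3 on the si-Ctr array of experiment A, below the array of experiment B.

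Of the next 10 genes, Enpp2, Apoc1, Wfdc12 and Pcdh17 had levels on the array labelled si-Setdb1 that were near or above those on the array labelled si-Mcaf1. Enpp2, which encodes autotaxin, the enzyme that makes lysophosphatidic acid, read 1057 on the array labelled si-Mcaf1, 877 on the array labelled si-Setdb1, 579 on si-Mbd1 and 321.5 on si-Ctr. Apoc1, an apolipoprotein, read 102 and 163 on the arrays labelled si-Mcaf1 and si-Setdb1, 26.5 on si-Mbd1 and 25.0 on si-Ctr. Wfdc12, a small secreted protein with a protease inhibitor fold, read 68.9 and 110.1 on the arrays labelled si-Mcaf1 and si-Setdb1, 16.5 on si-Mbd1 and 10.2 on si-Ctr. Apoc1 and Wfdc12 were higher on the array labelled si-Setdb1 than on the array labelled si-Mcaf1, and Enpp2 was lower there. Pcdh17, a protocadherin, read 57.7 and 60.5 on the arrays labelled si-Mcaf1 and si-Setdb1, 39.0 on si-Mbd1 and 5.9 on si-Ctr, so here si-Mbd1 was high too.

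The other 6 of these genes were lower on the array labelled si-Setdb1 than on the array labelled si-Mcaf1. Slc7a2, a transporter of cationic amino acids, read 100 on the array labelled si-Mcaf1, 31.9 on the array labelled si-Setdb1, 30.1 on si-Mbd1 and 20.9 on si-Ctr. Ms4a4d, a membrane protein with 4 membrane spans, read 131.0, 49.8, 7.5 and 30.1 in that order. Nupr1, a small stress-induced chromatin protein, read 1253, 759, 559 and 431 in that order, with 624 on the si-Ctr array of experiment A. Slc7a2 and Ms4a4d were more than 2-fold apart from each of the other 3 arrays, and Nupr1 was not. Ddr1, a receptor tyrosine kinase for collagen, read 940.4 on the array labelled si-Mcaf1, 271.5 on the array labelled si-Setdb1, 624 on si-Mbd1 and 330.1 on si-Ctr, a log2 difference of 1.47 from si-Ctr. The other 4 Ddr1 probe sets above 50 lay much closer to si-Ctr, at 0.21, 0.07, 0.34 and 0.41, so the probe sets of Ddr1 disagree in size. Clip4, a microtubule-binding protein, read 68.7 on the array labelled si-Mcaf1 and 7.2 on si-Ctr, but 37.2 on the si-Ctr array of experiment A. Tnfrsf22, a decoy receptor for TRAIL in mice, read 104 on the array labelled si-Mcaf1 and 29.0 on si-Ctr. Of the 46 higher genes, 25 were below 50 on si-Ctr, where signals are dim and no detection calls were used. Other probe sets above 50 for these genes numbered 25, in 17 genes. Of these 25, 14 were at least 2-fold higher themselves, and 1, of Pi15, lay below 0 on the log2 scale.

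**Figure D3:**
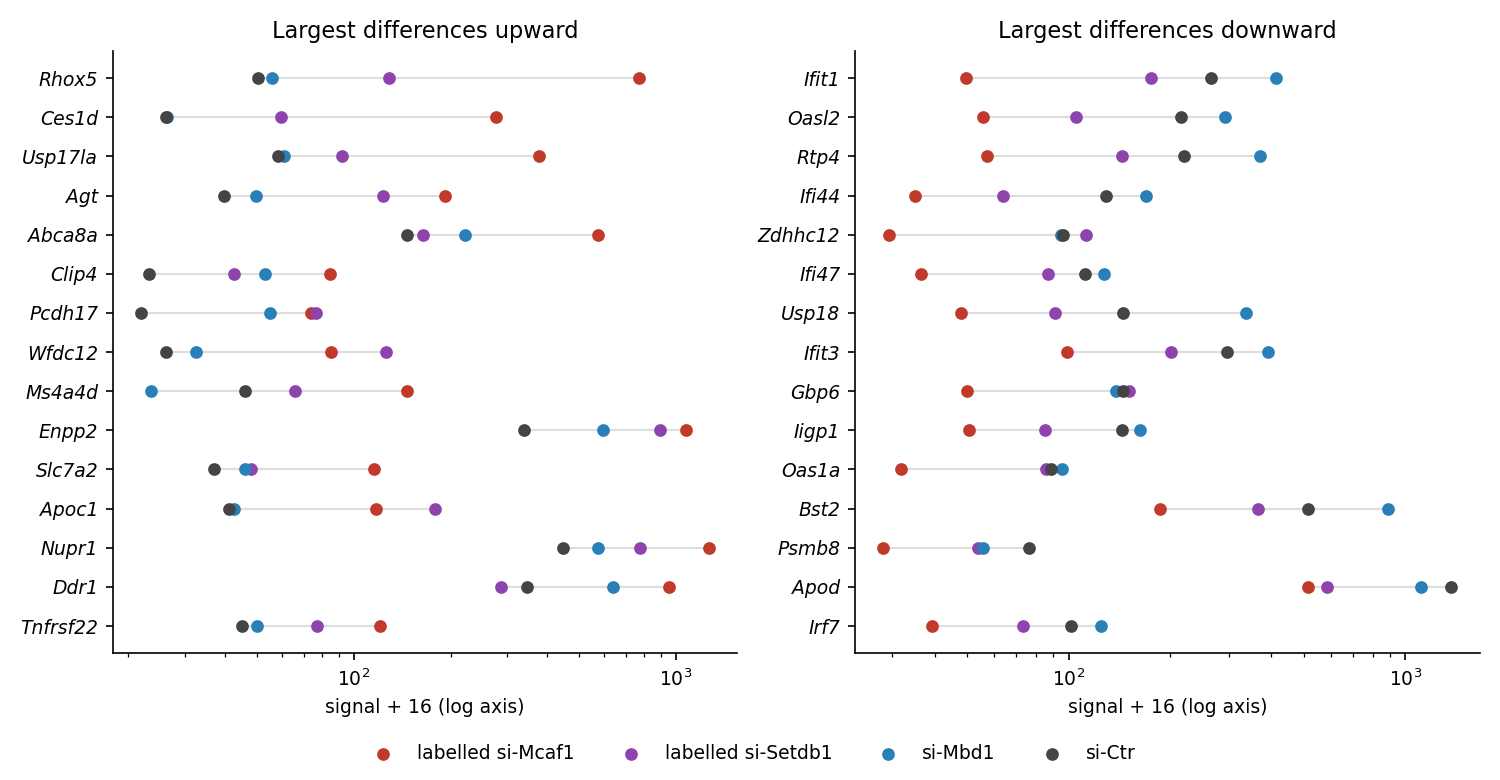
The 15 genes farthest above si-Ctr (left) and the 15 farthest below it (right) on the array labelled si-Mcaf1, clone and predicted names left out, with the signal plus 16 of each of the 4 arrays on a log axis and 1 array per point. On the left the red points of the array labelled si-Mcaf1 are at the far right for all but Pcdh17, Wfdc12 and Apoc1, and on the right they are the lowest of the 4 in every gene.

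The interferon-stimulated genes were the largest group among the lower genes. Interferons act through the JAK kinases and factors of the STAT and IRF families, which switch on genes whose promoters hold an interferon-stimulated response element, and many of these genes have a low level in cultured fibroblasts without added interferon. Of 36 genes listed, 33 had a probe set and 30 were kept. Of these 30, 15 (50%) were at least 2-fold lower on the array labelled si-Mcaf1 than on si-Ctr and 0 were 2-fold higher, where 0.311% of all genes kept were lower. Their median log2 difference was -1.005 on the array labelled si-Mcaf1, -0.50 on the array labelled si-Setdb1 and 0.28 on si-Mbd1, each against the same si-Ctr array. The si-Ctr array of experiment A had a median of -0.16 against that of experiment B. The array labelled si-Mcaf1 was the lowest of the 4 in 26 of the 30 genes (86.7%), where it was the lowest in 28.2% of all genes kept, and si-Mbd1 was the highest in 24, where it was in 20.3% of all genes kept. All 30 genes were lower on the array labelled si-Mcaf1 than on si-Mbd1, 27 were lower than on the array labelled si-Setdb1, and 27 were lower than on both si-Ctr arrays. The median difference was -1.28 from si-Mbd1 and -0.59 from the array labelled si-Setdb1, against -0.004 and -0.002 over all genes kept. Of the 15 called genes, 10 were at least 2-fold below both si-Ctr arrays. The same si-Mcaf1 signal picked these 15 and enters that count. Against the si-Ctr array of experiment A the median was -0.87. Experiment A also has an array labelled si-Setdb1 at 0 hr, on which these genes had a median log2 difference of -0.36 from the si-Ctr array of that experiment, with 5 at least 2-fold lower. The array labelled si-Mcaf1 was below that array in 25 of the 30 genes but not in Ifi44 (19 against 15.9) or Oasl2 (39.9 against 29.6).

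Ifit1, which encodes a protein that binds viral RNA with an unmethylated cap, was the lowest against si-Ctr. Its signal was 33.6 on the array labelled si-Mcaf1, 159 on the array labelled si-Setdb1, 397 on si-Mbd1 and 248 on si-Ctr, a log2 difference of -2.41. The si-Ctr array of experiment A read 179, also well above the array labelled si-Mcaf1. Ifit3, a relative of Ifit1, read 82.9, 186, 374 and 279.8 in the same order, and Bst2, which encodes tetherin, an inhibitor of virus release, read 171.0, 349, 874 and 497. Both had the same order of arrays, lowest on the array labelled si-Mcaf1 and highest on si-Mbd1. The promoters of these genes are shown because the interferon-stimulated response element lies close to the start. The 3 windows hold 250 bases before and 50 after the RefSeq start, at chr19:34640639-34640938 on the plus strand for Ifit1, chr19:34583279-34583578 on the plus strand for Ifit3 and chr8:71537423-71537722 on the minus strand for Bst2, in GRCm38.p6. Capitals mark matches to GAAANNGAAA, the core of that element, or to its reverse complement TTTCNNTTTC. There are 2 matches in each window, and the 2 in Bst2 overlap.
Ifit1: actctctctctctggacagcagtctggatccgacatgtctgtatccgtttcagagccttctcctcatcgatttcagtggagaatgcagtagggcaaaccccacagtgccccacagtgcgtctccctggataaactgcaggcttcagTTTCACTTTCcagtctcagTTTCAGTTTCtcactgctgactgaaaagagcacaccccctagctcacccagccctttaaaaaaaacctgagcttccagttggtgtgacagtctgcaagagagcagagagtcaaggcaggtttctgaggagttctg
Ifit3: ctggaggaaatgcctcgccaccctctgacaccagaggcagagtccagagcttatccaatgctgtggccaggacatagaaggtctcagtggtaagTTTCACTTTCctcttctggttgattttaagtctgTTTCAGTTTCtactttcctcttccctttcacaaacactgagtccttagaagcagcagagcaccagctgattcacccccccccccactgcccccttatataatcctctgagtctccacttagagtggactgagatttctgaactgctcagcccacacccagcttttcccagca
Bst2: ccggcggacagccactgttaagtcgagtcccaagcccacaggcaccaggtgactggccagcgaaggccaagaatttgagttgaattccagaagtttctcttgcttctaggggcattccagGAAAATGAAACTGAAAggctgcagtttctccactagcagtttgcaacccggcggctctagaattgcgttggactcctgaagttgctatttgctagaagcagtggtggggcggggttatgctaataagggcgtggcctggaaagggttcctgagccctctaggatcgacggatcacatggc
Over the RefSeq promoter table, 3.44% of 32851 windows of this length held the motif on either strand, and 2.95% of the 9528 windows of genes kept did. Of the 30 interferon-stimulated genes kept, 24 matched the table with 29 windows, and 15 windows (51.7%) held it. Of the 29 lower genes, 22 matched with 24 windows, of which 10 (41.7%) held it. As 15 of the 29 are in the interferon list, these windows overlap with those of that list. Of the 46 higher genes, 30 matched with 44 windows, of which 1 (2.27%) held it. A match describes the sequence and is not a bound site.

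By role, the antiviral effectors had a median of -1.03 over 11 genes, of which 6 were at least 2-fold lower. Oasl2, of the oligoadenylate synthetase family, read 39.9 on the array labelled si-Mcaf1, 88.9 on the array labelled si-Setdb1, 276 on si-Mbd1 and 200.2 on si-Ctr, but 68.0 on the si-Ctr array of experiment A. Oas1a, of the same family, read 15.8, 69.6, 79.9 and 72.8 in the same order, with the array labelled si-Setdb1 close to si-Ctr. Ifit2 and Ifitm3 were the 2 listed genes above 0 against si-Ctr, at 0.18 and 0.03. The 5 guanylate-binding and immunity-related GTPases, which attack the vacuoles of intracellular parasites, had a median of -1.35. Iigp1 read 34.5 on the array labelled si-Mcaf1, 68.9 on the array labelled si-Setdb1, 147 on si-Mbd1 and 128 on si-Ctr. Gbp2 read 87.5 on the array labelled si-Mcaf1 and 85.3 on the array labelled si-Setdb1, against 251 on si-Ctr, so here both arrays were low alike.

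Transcription factors of the pathway were lower than on si-Ctr too. Irf7, the factor that amplifies interferon production, read 23.3 on the array labelled si-Mcaf1, 57.3 on the array labelled si-Setdb1, 109 on si-Mbd1 and 85.9 on si-Ctr, and 36.5 on the si-Ctr array of experiment A. Stat2 read 78.8 on the array labelled si-Mcaf1 and 143 on si-Ctr, but only 28.0 on the si-Ctr array of experiment A. For Stat2 the 2 control arrays therefore lay on either side of the array labelled si-Mcaf1. Irf9 and Irf1 differed from si-Ctr by -0.82 and -0.37. The 2 sensors of viral RNA in the list, Ifih1 and Dhx58, were at -0.66 and -0.97. Usp18, which removes the ubiquitin-like protein ISG15 and dampens the interferon receptor, read 32.1 on the array labelled si-Mcaf1, 75.2 on the array labelled si-Setdb1, 319 on si-Mbd1 and 129 on si-Ctr. Among antigen presentation genes Psmb8, an immunoproteasome subunit, was at -1.44, while Tap1 and B2m were less far apart, at -0.40 and -0.22. The summed signal of the 10 macrophage and leukocyte markers was 212 on the array labelled si-Mcaf1 and 149.9 on si-Ctr, and its part in these levels was not tested.

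**Figure D4:**
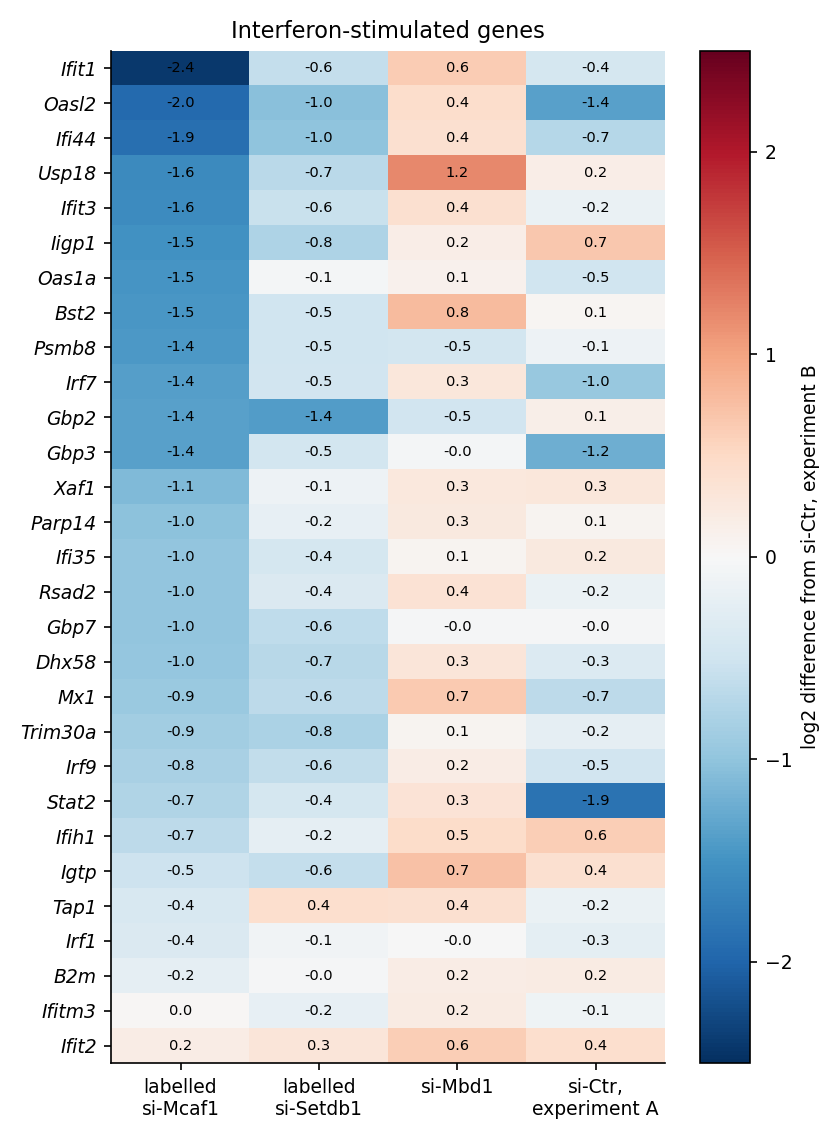
Colour and number give the log2 difference of 29 of the 30 interferon-stimulated genes from the si-Ctr array of experiment B, with 1 array per column and genes ordered by the array labelled si-Mcaf1. The first column is blue for all genes but Ifitm3 and Ifit2, the si-Mbd1 column is mostly red, and the si-Ctr array of experiment A in the last column scatters both ways.

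Of the 29 lower genes, 14 were not in the interferon list. Rtp4, an interferon-induced chaperone of taste receptors, read 41.2 on the array labelled si-Mcaf1, 128 on the array labelled si-Setdb1, 354 on si-Mbd1 and 204 on si-Ctr. Gbp6, Ifi47 and Irgm2, which belong to the same families of interferon-induced GTPases as the listed ones, were at -1.54, -1.62 and -1.32 on the log2 scale, and Mndal, of the interferon-inducible p200 family, at -1.15. Zdhhc12, a palmitoyltransferase, read 13.3 on the array labelled si-Mcaf1, 97.0 on the array labelled si-Setdb1, 78.8 on si-Mbd1 and 80.1 on si-Ctr, and was below all of the other 11 arrays of the series. Apod, a secreted lipocalin of quiescent fibroblasts, read 497 on the array labelled si-Mcaf1, 568 on the array labelled si-Setdb1, 1093 on si-Mbd1 and 1352 on si-Ctr, so it was low on the array labelled si-Setdb1 as well. Fxyd5, a regulator of the sodium pump, read 111 on the array labelled si-Mcaf1 and 229 to 255.0 on the other 3. The other 9 probe sets above 50 of lower genes, in 6 genes, all lay below 0, and 5 of them were at least 2-fold lower. Of the lower genes, 16 were below 50 on the array labelled si-Mcaf1.

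Read against each of the other 3 arrays rather than si-Ctr alone, 8 genes (0.0857%) were at least 2-fold higher on the array labelled si-Mcaf1 and 9 (0.0964%) at least 2-fold lower. Counted in the same way, the array labelled si-Setdb1 stood apart in 16 genes upward (0.171%) and 7 downward (0.075%), si-Mbd1 in 2 (0.0214%) and 1 (0.0107%), and si-Ctr in 0 (0%) and 2 (0.0214%). The smallest of the 3 log2 differences was 2.58 for Rhox5, 2.21 for Ces1d, 2.03 for Usp17la and 1.37 for Abca8a. Ecrg4, which encodes a secreted peptide precursor, read 159.9 on the array labelled si-Mcaf1, 47.9 on the array labelled si-Setdb1, 38.5 on si-Mbd1 and 55.1 on si-Ctr. The array labelled si-Setdb1 of experiment A read 174.9, above all of these, with 68.0 on its si-Ctr array, so for Ecrg4 the distance holds within experiment B alone. Gdpd2, a glycerophosphodiesterase, read 279 on the array labelled si-Mcaf1 and 84.7 to 126 on the other 3. Slc7a2 and Ms4a4d complete the 8. Genes short of 2-fold included the Wnt modulators Sfrp2 and Rspo2, the matrix protein gene Abi3bp, Ninl, Angpt4 and Setdb1 itself. Their smallest log2 difference ranged from 0.79 for Angpt4 to 0.95 for Ninl, with Setdb1 at 0.84. Sfrp2 read 828 on the array labelled si-Mcaf1, 425 on the array labelled si-Setdb1, 426 on si-Mbd1 and 341 on si-Ctr. The 9 genes downward were Ifit1, Zdhhc12, Gbp6, Oas1a, Rtp4, Ifi47, Irgm2, Ifit3 and Mndal, of which 3 are in the interferon list. Mfap4, a microfibril protein just short of 2-fold, read 101 on the array labelled si-Mcaf1 and 217 to 419.5 on the other 3, but 8.0 on the si-Ctr array of experiment A.

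Fat cell genes were mostly much lower on the array labelled si-Mcaf1 than on the array labelled si-Setdb1. Most of those kept were above si-Ctr, and a few of them by at least 2-fold. Of 35 adipocyte lipid and secreted genes listed, 19 were kept. Of these, 13 (68.4%) were above si-Ctr on the array labelled si-Mcaf1, where 48.5% of all genes kept were, and 6 were below. At least 2-fold higher were 3 (15.8%), where 0.493% of all genes kept were, and 0 were 2-fold lower. Those 3 were below 50 on si-Ctr and si-Mbd1. They passed the filter only through the arrays labelled si-Mcaf1 and si-Setdb1, on which they were high, so the share among genes kept is no close match. The median log2 difference from si-Ctr was 0.29 on the array labelled si-Mcaf1, 1.41 on the array labelled si-Setdb1 and 0.14 on si-Mbd1. Of the 19 genes, 17 were lower on the array labelled si-Mcaf1 than on the array labelled si-Setdb1. The median difference between these arrays was -0.83, against -0.002 over all genes kept. Some of the 19 passed the filter only through the array labelled si-Setdb1. The count of 17 and the median of 1.41 are thus in part fixed by the filter. Adipoq, which encodes the fat cell hormone adiponectin, read 11.1 on the array labelled si-Mcaf1, 1029 on the array labelled si-Setdb1, 20.7 on si-Mbd1 and 6.1 on si-Ctr. Fabp4, the fatty acid carrier of fat cells, read 86.9, 1199.8, 67.1 and 41.5 in that order, and Cd36, a fatty acid receptor, read 2.8, 113.0, 6.6 and 5.3. Pparg, the factor that drives fat cell formation, read 126 on the array labelled si-Mcaf1, 323 on the array labelled si-Setdb1, 165.5 on si-Mbd1 and 159.9 on si-Ctr, and Cebpa, its partner, read 78.2, 195 and 84.6, against 47.7 on si-Ctr. The array labelled si-Mcaf1 was thus the lowest of the 4 for Pparg and lay with si-Mbd1 for Fabp4. Adipoq and Cd36 were below 50 on every array of the 4 but the one labelled si-Setdb1, through which alone they passed the filter. The order of the others is therefore not read for these genes.

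The 3 adipocyte genes past 2-fold were Agt, Apoc1 and Hsd11b1, and Apoe was just under it at 0.9965. Hsd11b1, the enzyme that regenerates active glucocorticoid, read 92.7 on the array labelled si-Mcaf1, 100 on the array labelled si-Setdb1, 29.4 on si-Mbd1 and 25.1 on si-Ctr. Apoe, the apolipoprotein whose gene neighbours Apoc1, read 65.6, 127, 18.8 and 24.9 in that order. Hsd11b1 and Apoe were thus high on the arrays labelled si-Mcaf1 and si-Setdb1 and near si-Ctr on si-Mbd1. The next genes just past the 2-fold threshold upward were Sox11, Igfbp3 and Dok4, at 1.001 to 1.014, and those just past it downward were Serpinb9 and Parp14, at -1.003 and -1.025.

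Most other lists kept a median close to the -0.01 of all genes. Cholesterol synthesis genes were above 0 in 21 of 23 cases on the array labelled si-Mcaf1 (48.5% of all genes kept were above 0), with a median of 0.21, but the medians of the array labelled si-Setdb1 and of si-Mbd1 were 0.23 and 0.17, and the si-Ctr array of experiment A was at -0.27. Srebf2, the main regulator of that pathway, read 221.5 on the array labelled si-Mcaf1, 208.5 on the array labelled si-Setdb1, 189 on si-Mbd1 and 123 on si-Ctr. The si-Ctr array of experiment B was thus the low one for this gene, together with that of experiment A at 125. Hypoxia and glycolysis genes had a median of -0.19, with 6 of 20 above 0, and the si-Ctr array of experiment A had the same median. Bnip3, a mitophagy receptor induced by low oxygen, read 233 on the array labelled si-Mcaf1, 522 on the array labelled si-Setdb1, 358 on si-Mbd1 and 439.9 on si-Ctr. Among 40 matrix and myofibroblast genes 1 was 2-fold higher, Tagln, a smooth muscle actin-binding protein, at 270.1 on the array labelled si-Mcaf1 and 119 on si-Ctr, and at 451 on the si-Ctr array of experiment A. Among 13 heat shock genes 10 were lowest of the 4 arrays on the array labelled si-Mcaf1 (28.2% of all genes kept were), with medians of -0.11 there, 0.0047 on the array labelled si-Setdb1 and 0.07 on si-Mbd1, while Hspa1b, the inducible HSP70 gene, read 942 there and 428 on si-Ctr. Among bone, cartilage and muscle genes, Spp1, which encodes osteopontin, read 2203 on the array labelled si-Mcaf1, 1685 on the array labelled si-Setdb1, 2113 on si-Mbd1 and 869 on si-Ctr, with 408 on the si-Ctr array of experiment A, so the 3 arrays with a targeting siRNA by label were above both si-Ctr arrays.

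Genes named Zfp, many of which encode the zinc finger proteins that bring SETDB1 to DNA, were often highest on the array labelled si-Mcaf1, by small amounts. Of 214 kept, 96 were highest on the array labelled si-Mcaf1 of the 4 arrays and 28 lowest, where 27% and 28.2% of all genes kept were. Their median log2 difference from si-Ctr was 0.07 on the array labelled si-Mcaf1, -0.08 on the array labelled si-Setdb1 and -0.05 on si-Mbd1, and 0 of them were 2-fold higher or lower. Of 66 mitochondrial respiratory chain subunits, 39 were lowest on the array labelled si-Mcaf1, with a median of -0.06, and again 0 passed 2-fold. Imprinted genes, some of which SETDB1 is known to act on, had 0 of 14 past 2-fold on the array labelled si-Mcaf1. Over all genes kept, 0.493% were 2-fold higher and 0.311% lower. Of the 14, 10 were below si-Ctr, with a median of -0.07, and 9 (64.3%) were lowest on the array labelled si-Mcaf1. Igf2 and H19 were among the 4 above si-Ctr. Igf2, the fetal growth factor gene, read 390.3 on the array labelled si-Mcaf1, 1271 on the array labelled si-Setdb1, 229.6 on si-Mbd1 and 200.2 on si-Ctr, and H19, its neighbour, read 203, 874, 138 and 139.5 in that order. For both genes the array labelled si-Mcaf1 lay between the array labelled si-Setdb1 and the other 2.

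**Figure D5:**
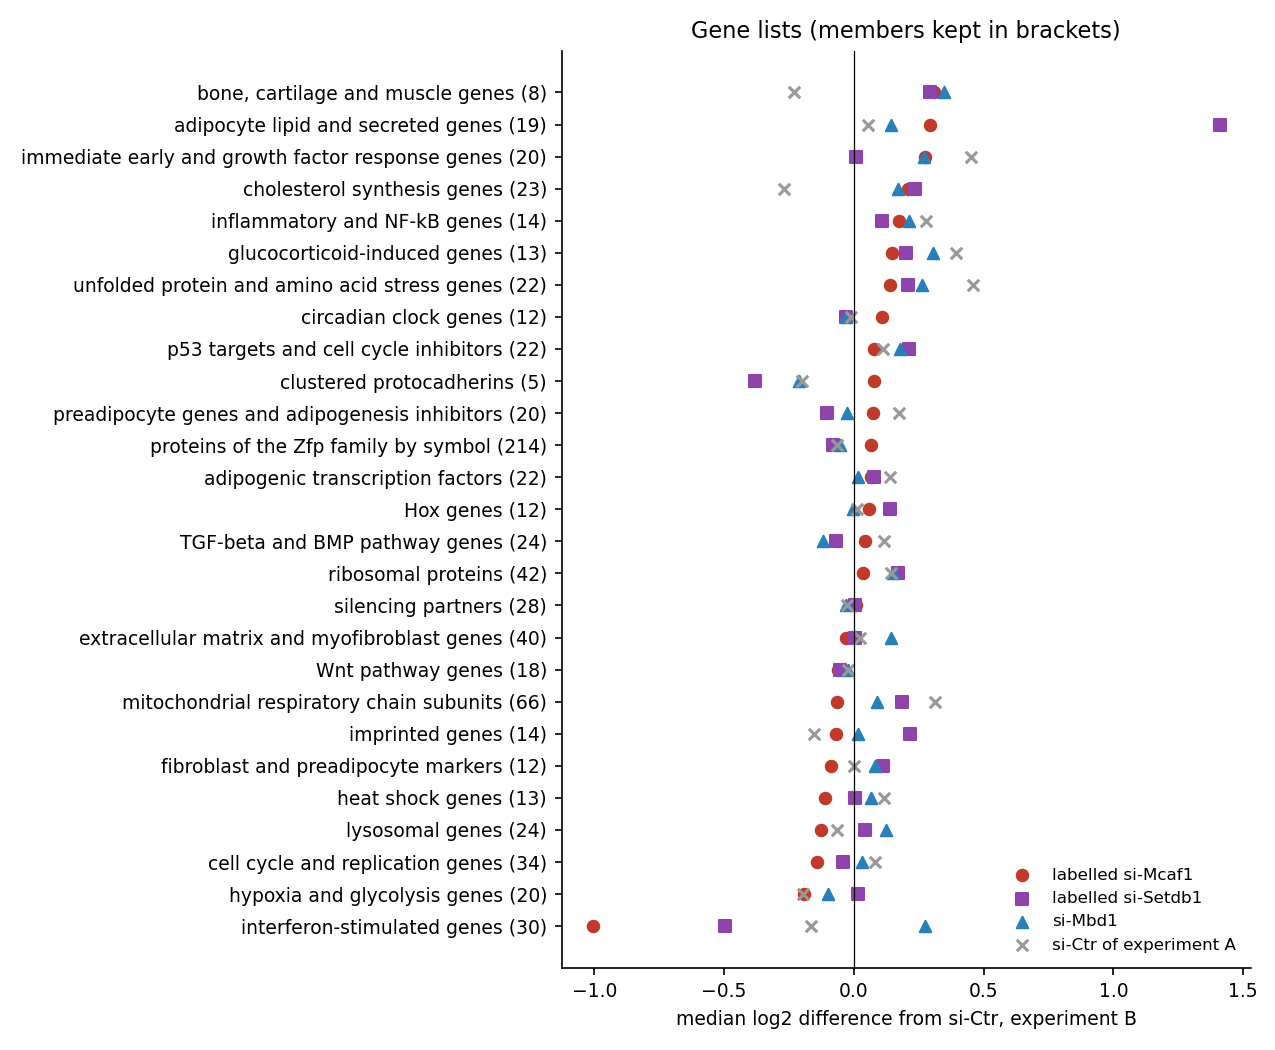
Median log2 difference from the si-Ctr array of experiment B for each gene list with at least 5 genes kept, on the array labelled si-Mcaf1, the array labelled si-Setdb1, si-Mbd1 and the si-Ctr array of experiment A. The interferon list stands far left on the array labelled si-Mcaf1 (-1.005) and the adipocyte list far right on the array labelled si-Setdb1 (1.41), and the other medians of the array labelled si-Mcaf1 lie between -0.19 and 0.31.

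CG dinucleotides were counted in the promoter windows of the genes past 2-fold. The 30 higher genes that matched the promoter table had 44 windows, of which 28 (63.6%) held fewer than 10. The 22 lower genes that matched had 24 windows, of which 19 (79.2%) did. Of the 29 lower genes 15 are in the interferon list, and 19 of the 29 windows of that list (65.5%) held fewer than 10 as well. The share was 16.2% over all genes kept and 56.5% over all promoters of the table. The share among genes kept is no close match for the higher genes, since 25 of the 46 were below 50 on si-Ctr and could pass the filter through the array on which they were high. The genes past 2-fold between the si-Ctr arrays of experiments A and B had 28.9%, and those of the array labelled si-Setdb1 against si-Ctr 49.3%. Rhox5 with 5 CG and Ifit3 with 1 belong to this class, and Bst2 with 11 does not.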

How the data were processed

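Total RNA of 3T3-L1 cells was hybridised as biotinylated cRNA to Affymetrix arrays, per the labels' protocols. The authors deposited 1 linear intensity per probe set and array for 45101 probe sets, and the values show that each array was scaled to a trimmed mean of 100 (2% off each end). Detection calls were not used. The software and the background correction are not given here by any label or header. The authors also deposited log2 ratios, which equal the log2 of the si-Mcaf1 over the si-Ctr signal in 45098 cells and fix the direction. All signal columns used belong to the 12 arrays of the series.

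Of the probe sets, 64 were controls, and 38068 had 1 symbol, 1253 several and 5654 none, with a date in 62. Symbols were updated through RefSeq, and 2875 unmatched ones stayed as deposited. Each gene takes its probe set of highest mean signal on the 12 arrays, and 16650 probe sets passed the signal of 50. Differences were log2(signal + 16). Folds are on that scale. Promoters come from the RefSeq table for GRCm38.p6. Work was done in Python 3.11.15 with numpy 2.4.6 and pandas 2.3.3, and the counting was tested on simulated data. The precision is limited by the number of arrays, 1 a side.

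Members, lists and naming rule were chosen with earlier results of these data known. The rule took the targeted genes, the 15 largest differences from si-Ctr each way, the 15 genes farthest above and below each of the other 3 arrays, and up to 6 members per list, leaving out clone and predicted names. Pi15, Sox11, Igfbp3, Dok4, Serpinb9 and members named for their role were chosen after their values were seen. Alternatives were other pseudocounts, normalisations, filters, probe set rules and control arrays. A few genes chosen by this rule are not reported here.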

Additional observations from a re-analysis of the deposited data

How the results depend on the processing

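The adipocyte median, the interferon median and the Atf7ip difference did not change sign in any setting. Some other list medians did against the si-Ctr array of experiment A. There the glucocorticoid-induced genes went from 0.15 to -0.16. The unfolded protein and amino acid stress genes went from 0.14 to -0.23, and the imprinted genes from -0.07 to 0.05. A pseudocount of 1 gave 89 higher and 51 lower genes, 13 and 23 apart from each of the other 3 arrays, 112 and 272 between the si-Ctr arrays, and medians of 0.37 for the adipocyte and -1.31 for the interferon list. A pseudocount of 50 gave 20 and 17, 4 and 3, 39 and 60, and medians of 0.24 and -0.82, with 9 interferon genes 2-fold lower. Taking the mean of all probe sets gave 28 higher genes, 31 between the si-Ctr arrays upward, and an interferon median of -0.84. With the si-Ctr array of experiment A as the control there were 197 higher and 92 lower genes, more in all than the 73 and 147 between the control arrays, Atf7ip at -0.25 and an interferon median of -0.87, and 46 of the 75 genes past 2-fold in the main setting were among the 289 there. With the mean of both control arrays the adipocyte median was 0.23. Without the filter there were 82 higher genes and the adipocyte median was 0.17. Counting every probe set above 50, a setting added after the data were seen, gave 97 higher, 53 lower and 17 apart above. Smaller counts at the larger pseudocount follow from its construction, and the cause of the other changes was not tested. Of the other values, 471 moved little and 158 moved more. Quantile normalisation shared 72 of its 80 calls with the main setting. No paired analysis was possible because each comparison has 1 array a side and rests on no test, and for the same reason no replicate could be left out. Without counts or detection calls, signals under 50 have no known precision.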

Other observations

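A gene outside the naming rule, A130040M12Rik, was chosen after its values were seen, because its levels differed on all 3 arrays with a targeting siRNA. A clone name is all that the annotation gives it. Its brightest probe set read 812 on the array labelled si-Mcaf1, 713 on the array labelled si-Setdb1, 284 on si-Mbd1 and 67.3 on si-Ctr. Another probe set of the gene read 884.5, 529 and 219.5 on those arrays and 38.7 on si-Ctr, and a dimmer one read 80.4, 42.1 and 11.3, against 11.2 on si-Ctr. The order of the arrays was the same in all 3 probe sets, and in the dimmer one si-Mbd1 was level with si-Ctr. On the array labelled si-Mcaf1 the log2 differences from si-Ctr were 3.31, 4.04 and 1.83, so with the second probe set this gene was farther from si-Ctr than Rhox5.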
